A study of Mus musculus with 6 samples.

Results

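The genes described here are 10 adhesion molecules of the immunoglobulin superfamily, *Alcam*, *Mcam*, *Ncam1*, *L1cam*, *Cadm1*, *Mpzl2*, *Mpzl3*, *Icam1*, *Vcam1* and *Cxadr*, out of 18820 genes that could be read from the arrays. They were taken as a list of symbols, and each was read from its probe set on the array. EpRas cells, a mammary tumor cell line of BALB/c background, derive from mouse mammary epithelial EpH4 cells that stably overexpress Ha-Ras, so that both groups carry Ha-Ras and all arrays stem from this cell line. RNA was hybridized from 3 samples of untreated EpRas cells (control) and from 3 samples of EpRas cells that had received 2 ng/ml of recombinant TGF-β1 for 14 days (long-term EMT), with 1 array per sample. Nothing in the labels says that the 3 samples of a group were independent cultures, and p-values therefore cover no more than the variation among these arrays, which may be technical.

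Adhesion molecules of this superfamily carry extracellular immunoglobulin-like domains by which they hold cells together, either by binding the same molecule on a neighboring cell or by binding another member or an integrin. In epithelia, several of them sit at or near cell–cell junctions next to E-cadherin, while others are better known from neurons, endothelium or activated stroma. Cells that go through epithelial–mesenchymal transition (EMT) give up E-cadherin junctions, and the question here was which of these other adhesion genes were higher or lower once that state had been reached.

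Expression is given as log2 RMA values, on which a difference of 1 is a 2-fold difference. A gene was called higher ("rose") or lower ("fell") when the limma test gave a Benjamini-Hochberg adjusted p under 0.05 over all 35556 probe sets together with a fold above 1.5. All 10 genes have 1 probe set with their symbol alone. The level of 4.48, the 95th percentile of 1006 olfactory receptor probe sets, served as the background level. Mammary epithelial markers were read for the label of the cells. The keratin gene *Krt8* had mean log2 values of 12.79 in control cells and 12.79 in long-term EMT cells, and *Krt18* 12.56 and 12.57. Of 10 such markers, 5 fell (*Cdh1*, *Epcam*, *Cldn7*, *Krt7* and *Krt14*) and 5 were not called. The median log2 fold change of the 10 markers was -1.94. Control replicate 1 stood apart, with correlations across probe sets of 0.984 to 0.987 with the other controls, which correlated at 0.995 with each other. The code in its description label ends in 05 and that of each other array in 07, and the labels do not say what the code stands for. Control replicate 1 was above the mean of the other controls for all 10 adhesion genes, by 0.01 to 1.60 on the log2 scale (median 0.49), compared to 51.8% of all genes (median 0.01). Its part in the results was not tested other than by the fit without it, which is also the fit within the arrays whose code ends in 07.

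Of the 10 genes, 2 rose in long-term EMT cells (*Mcam* and *Ncam1*) and 3 fell (*Mpzl2*, *Mpzl3* and *Cadm1*). Among all genes read in the same way, 1.47% rose and 1.49% fell. Without control replicate 1, 3 genes rose (*Alcam* in addition) and 3 fell. The remaining 5 genes with all arrays, *Alcam*, *L1cam*, *Cxadr*, *Vcam1* and *Icam1*, were not called. The median log2 fold change of the 10 genes was -0.16, against 0.02 over all genes. In 3 genes all long-term EMT arrays lay above all control arrays, and in another 3 all lay below, as was the case for 12.6% and 11.5% of all genes. The study names *Alcam*, *Mcam* and *Ncam1* as induced and lists *Cadm1*, *Mpzl2* and *Mpzl3* among its lower genes, on the same samples, so that these counts are not independent evidence of the direction.

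**Figure D1:**
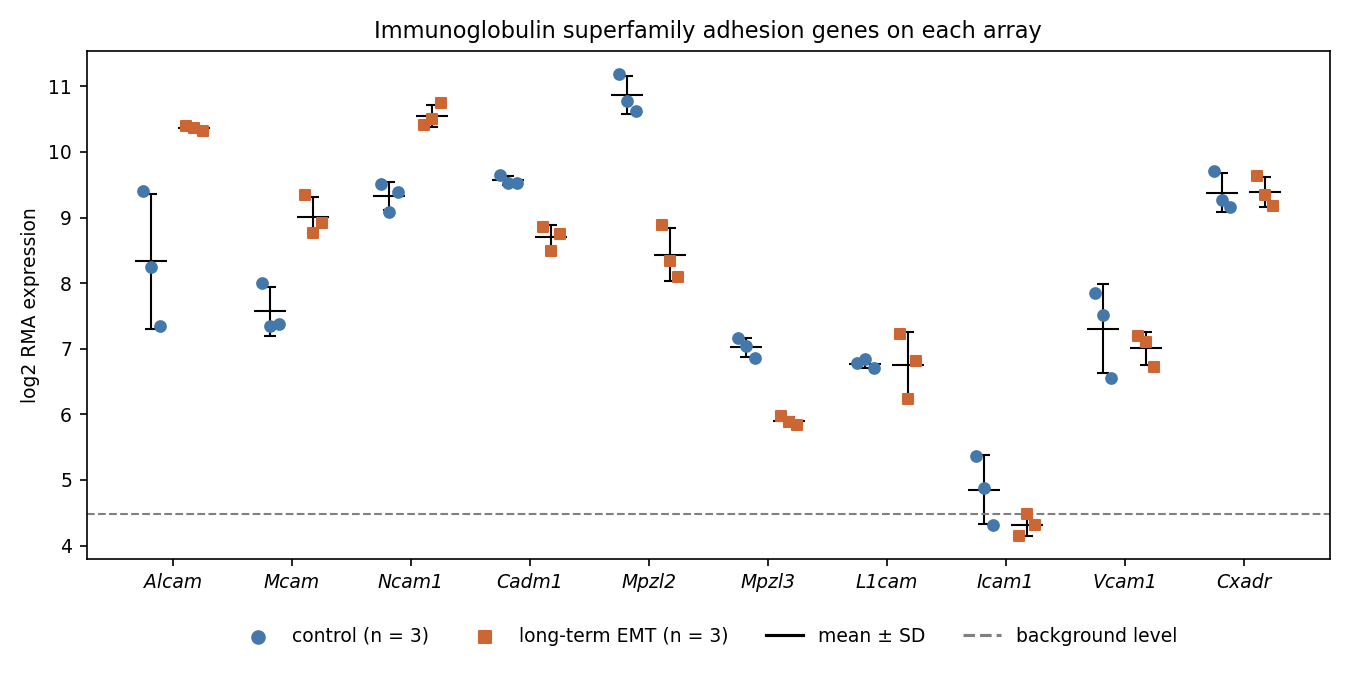
Log2 RMA values (vertical axis) of the 10 adhesion genes, array by array, with circles for the 3 control samples, squares for the 3 long-term EMT samples, black marks for the group mean and its SD and the background level of 4.48 as a dashed line. The groups are apart for the 6 genes on the left and overlap for *L1cam*, *Icam1*, *Vcam1* and *Cxadr*.

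*Ncam1* encodes the neural cell adhesion molecule, which binds itself on neighboring cells. Its log2 values were 9.51, 9.09 and 9.39 in control replicates 1 to 3 and 10.41, 10.50 and 10.74 in long-term EMT replicates 1 to 3. The lowest long-term EMT array was thus above the highest control array. *Ncam1* rose 2.33-fold (log2 fold change 1.22 ± 0.14 SE, limma adjusted p = 0.0132, n = 3 per group). A second probe set, which carries the symbol of *Gm11149* next to that of *Ncam1* and therefore names no gene, had values of 5.00, 4.81 and 4.97 in control cells and 5.30, 5.22 and 5.69 in long-term EMT cells. Its log2 fold change was 0.48 (± 0.14 SE, limma adjusted p = 0.198), so that it was not called, although its groups did not overlap either. Without long-term EMT replicate 2 or without long-term EMT replicate 3, *Ncam1* itself was not called (adjusted p = 0.0766 and 0.061 from limma).

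*Mcam* (CD146) is an adhesion molecule of endothelial and smooth muscle cells that was first known from melanoma. Its values were 8.0, 7.34 and 7.37 in control cells and 9.35, 8.77 and 8.92 in long-term EMT cells, and the groups did not overlap. *Mcam* rose 2.72-fold (log2 fold change 1.44 ± 0.23 SE, limma adjusted p = 0.035, n = 3 per group). The call depended on the arrays, and it was lost with treat, limma's test against a fold of 1.2 (adjusted p = 0.0779). Without control replicate 1 *Mcam* was called (log2 fold change 1.66), and without any other single array it was not, with adjusted p between 0.0928 and 0.137 from limma and log2 fold changes between 1.28 and 1.57. Since *Mcam* is used as an endothelial marker, 9 other endothelial markers were read. Of these, *Cdh5* rose, from a mean of 4.78 to 7.27, and 8 were not called. The means of 4 markers were above the background level in control cells (*Cdh5*, *Tie1*, *Cldn5* and *Vwf*) and those of 5 in long-term EMT cells (*Esam* in addition). Below it in both groups were *Pecam1*, at 3.89 and 3.90, *Kdr*, at 3.58 and 3.73, *Tek*, at 3.90 and 3.98, and *Emcn*, at 4.25 and 4.27. The mean level of the 9 markers was 4.38 to 4.45 on the control arrays and 4.67 to 4.83 on the long-term EMT arrays. That of the 8 markers other than *Cdh5* was 4.34 to 4.40 and 4.41 to 4.51, and their part in the rise of *Mcam* was not tested.

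*Alcam* (CD166) belongs to the same subgroup of the superfamily as *Mcam* and binds itself and the lymphocyte receptor CD6. Its values were 9.40, 8.25 and 7.35 in control cells and 10.40, 10.36 and 10.32 in long-term EMT cells. The long-term EMT arrays lay within 0.08 of each other, while the control arrays spread over 2.05 log2 units, and the groups did not overlap. The fitted difference was the largest by value among the genes of the list that were higher, at a log2 fold change of 2.03 (95% interval 0.88 to 3.18, standard error 0.48), but *Alcam* was not called (adjusted p = 0.112 from limma). Without control replicate 1, the control array nearest to the long-term EMT arrays, the log2 fold change was 2.56 and *Alcam* was called (adjusted p = 0.00975 from limma). Without control replicate 3, the lowest control array, it was 1.54 (adjusted p = 0.117). *Bcam*, the third gene of this subgroup, went in the opposite direction by value, with 9.15, 7.84 and 7.36 in control cells and 7.19, 6.51 and 6.37 in long-term EMT cells. It was not called (log2 fold change -1.43 ± 0.47 SE, limma adjusted p = 0.254).

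The windows before the transcription start of *Alcam* and *Mcam*, the members with higher values for which the RefSeq promoter table of build GRCm38.p6 holds a sequence, are shown because both contain an E-box of the kind bound by the Zeb and Snail repressors. The letters searched were CAGGTG and, on the other strand, CACCTG, and 17.2% of all 32851 windows of 250 bases hold a match. The capitals mark the match, which lies 40 to 35 bases before the start in *Alcam* and 212 to 207 bases before it in *Mcam*. The *Alcam* window is chr16:52453082-52453331, minus strand, and the *Mcam* window is chr9:44134408-44134657, plus strand, both given 5′ to 3′ and ending at the base before the start.
Alcam: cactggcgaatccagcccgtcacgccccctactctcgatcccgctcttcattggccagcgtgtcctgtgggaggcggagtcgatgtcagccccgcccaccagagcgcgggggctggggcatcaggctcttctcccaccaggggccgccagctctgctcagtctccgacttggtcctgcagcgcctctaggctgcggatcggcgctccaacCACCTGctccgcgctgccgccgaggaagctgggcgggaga
Mcam: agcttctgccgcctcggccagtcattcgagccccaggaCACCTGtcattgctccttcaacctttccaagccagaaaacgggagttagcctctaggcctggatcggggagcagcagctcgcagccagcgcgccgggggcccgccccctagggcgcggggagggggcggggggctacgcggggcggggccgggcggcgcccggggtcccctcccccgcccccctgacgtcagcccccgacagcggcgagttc
Neither window holds the Smad box CAGAC or its reverse strand form GTCTG, found in 42.2% of windows, the AP-1 form TGANTCA, found in 6.75%, or the NF-κB form GGNNNTTCC or its reverse strand form GGAANNNCC, found in 15.7%. Such a match is a description of the letters, and promoter windows were at hand for 4 of the 10 genes (*Alcam*, *Mcam*, *L1cam* and *Icam1*).

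The deepest fall by value among the 10 genes was that of *Mpzl2*, which encodes an epithelial and thymic adhesion protein related to myelin protein zero. *Mpzl2* had values of 11.19, 10.77 and 10.63 in control cells and of 8.88, 8.33 and 8.09 in long-term EMT cells. The highest long-term EMT array was 1.75 log2 units below the lowest control array. *Mpzl2* fell by 2.43 on the log2 scale, or 5.39-fold (± 0.24 SE, limma adjusted p = 0.00754, n = 3 per group). The call was lost without long-term EMT replicate 2 (log2 fold change -2.38, adjusted p = 0.0557) and held without each other array.

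*Mpzl3*, the neighbor of *Mpzl2* on chromosome 9 and an adhesion protein of the epidermis, had values of 7.16, 7.04 and 6.86 in control cells and of 5.97, 5.88 and 5.84 in long-term EMT cells. It fell by 1.12 (± 0.10 SE, limma adjusted p = 0.00596), and of the 10 genes it was the only one that was called whichever single array was left out, with log2 fold changes from -1.2 to -1.05. *Mpzl1*, which is not next to them, had a log2 fold change of 0.19 (± 0.19 SE, adjusted p = 0.771). The genes that flank the pair were low in both groups. *Cd3e* on the side of *Mpzl2* had means of 4.83 in control cells and 4.99 in long-term EMT cells (adjusted p = 0.506), and *Jaml*, another adhesion gene of the superfamily on the side of *Mpzl3*, had means of 3.71 and 3.76 (adjusted p = 0.9). Both genes of the pair stayed above the background level in long-term EMT cells.

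*Cadm1*, also known as nectin-like molecule 2 and as a tumor suppressor of epithelial cancers, binds itself and nectins at lateral cell contacts. Its values were 9.65, 9.52 and 9.53 in control cells and 8.85, 8.49 and 8.75 in long-term EMT cells. The control arrays lay within 0.13 of each other, and the groups did not overlap. *Cadm1* fell by 0.87 on the log2 scale, or 1.83-fold (± 0.11 SE, limma adjusted p = 0.0187, n = 3 per group). It was called without control replicate 1 and without long-term EMT replicate 1. Without control replicates 2 or 3, or long-term EMT replicates 2 or 3, it was not, with adjusted p = 0.0867, 0.0528, 0.0588 and 0.0811 and log2 fold changes between -0.90 and -0.77. With a fold above 2 required it was not called either, nor with treat (adjusted p = 0.0647).

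The groups overlapped for the other 4 genes. *Cxadr*, the coxsackievirus and adenovirus receptor of tight junctions, had values of 9.71, 9.27 and 9.16 in control cells and of 9.64, 9.34 and 9.18 in long-term EMT cells. The log2 fold change was 0.01, with a 95% interval from -0.44 to 0.45 (adjusted p = 0.994 from limma), and its sign depended on the array left out. The long-term EMT arrays all lay within the range of the control arrays, in cells in which the mean of *Cdh1* went from 9.57 to 4.48.

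*L1cam*, a neural adhesion molecule that is also found in invasive carcinoma cells, had values of 6.78, 6.84 and 6.70 in control cells and of 7.22, 6.24 and 6.81 in long-term EMT cells. The long-term EMT arrays enclosed the control arrays on both sides, and the log2 fold change was -0.02 (95% interval -0.59 to 0.56, adjusted p = 0.988 from limma). Neural and Schwann cell markers were read beside *Ncam1* and *L1cam*. Only 3 of 7 had a probe set of their own, and of these *Sox10*, at means of 4.70 and 4.72, *Gfap*, at 4.59 and 4.64, and *S100b*, at 5.15 and 4.92, were not called.

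*Vcam1* and *Icam1* are adhesion molecules that inflammatory cytokines induce on endothelium and stroma and that leukocyte integrins bind. *Vcam1* had values of 7.85, 7.52 and 6.55 in control cells and of 7.20, 7.10 and 6.72 in long-term EMT cells, a log2 fold change of -0.30 (95% interval -1.12 to 0.52, adjusted p = 0.798 from limma). All long-term EMT values were between the lowest and the highest control array. Leaving out 1 array moved the log2 fold change of *Vcam1* between -0.68, without control replicate 3, and -0.03, without control replicate 1. *Icam1* had values of 5.37, 4.88 and 4.31 in control cells and of 4.15, 4.48 and 4.31 in long-term EMT cells. The mean in long-term EMT cells, 4.31, was below the background level, so that the log2 fold change of -0.54 (95% interval -1.18 to 0.10, adjusted p = 0.464 from limma) has no measured lower end. It was -0.81 without control replicate 3 and -0.28 without control replicate 1.

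The window before the start of *Icam1* (GRCm38.p6, chr9:21015690-21015939, plus strand, 5′ to 3′) is shown because it holds 2 matches to the NF-κB form, 153 to 145 and 84 to 76 bases before the start, next to an E-box 204 to 199 bases before it. All 3 matches are in capitals.
Icam1: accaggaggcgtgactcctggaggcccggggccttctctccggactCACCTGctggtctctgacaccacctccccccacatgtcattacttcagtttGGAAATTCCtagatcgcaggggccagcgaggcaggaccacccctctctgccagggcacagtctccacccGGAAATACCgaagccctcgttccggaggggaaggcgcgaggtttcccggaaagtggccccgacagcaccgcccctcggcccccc
Since NF-κB is the classical inducer of both genes, 27 other NF-κB inducible genes were read. None was called with limma, and 1 higher and 6 lower genes passed the fold of 1.5 with an unadjusted p under 0.05, against 0 higher and 4 lower genes with the methods' t-test, gene by gene. Over all genes, 2.88% were higher and 3.71% lower in this way with limma, and 2.5% and 2.85% with the methods' t-test. The median log2 fold change of the 27 genes was -0.28, against 0.02 over all genes, and it was -0.11 without control replicate 1. The 6 lower genes with limma were *Lcn2*, *Cxcl5*, *Ccl2*, *Cxcl10*, *Tnfaip2* and *Selp*, and the higher gene was *Csf2*. The log2 fold changes were -3.06 for *Cxcl5*, -2.98 for *Ccl2*, -1.99 for *Cxcl10*, -0.69 for *Tnfaip2*, -0.61 for *Selp* and 0.95 for *Csf2*. The means of *Nfkbia* were 10.03 in control cells and 9.75 in long-term EMT cells, and those of *Tnfaip3* were 8.06 and 8.48. The lowest value was that of *Lcn2*, a secreted epithelial defense protein, whose arrays spread from 10.49 to 12.84 in control and from 4.84 to 9.30 in long-term EMT cells (log2 fold change -5.11 ± 1.2 SE, limma adjusted p = 0.112).

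**Figure D2:**
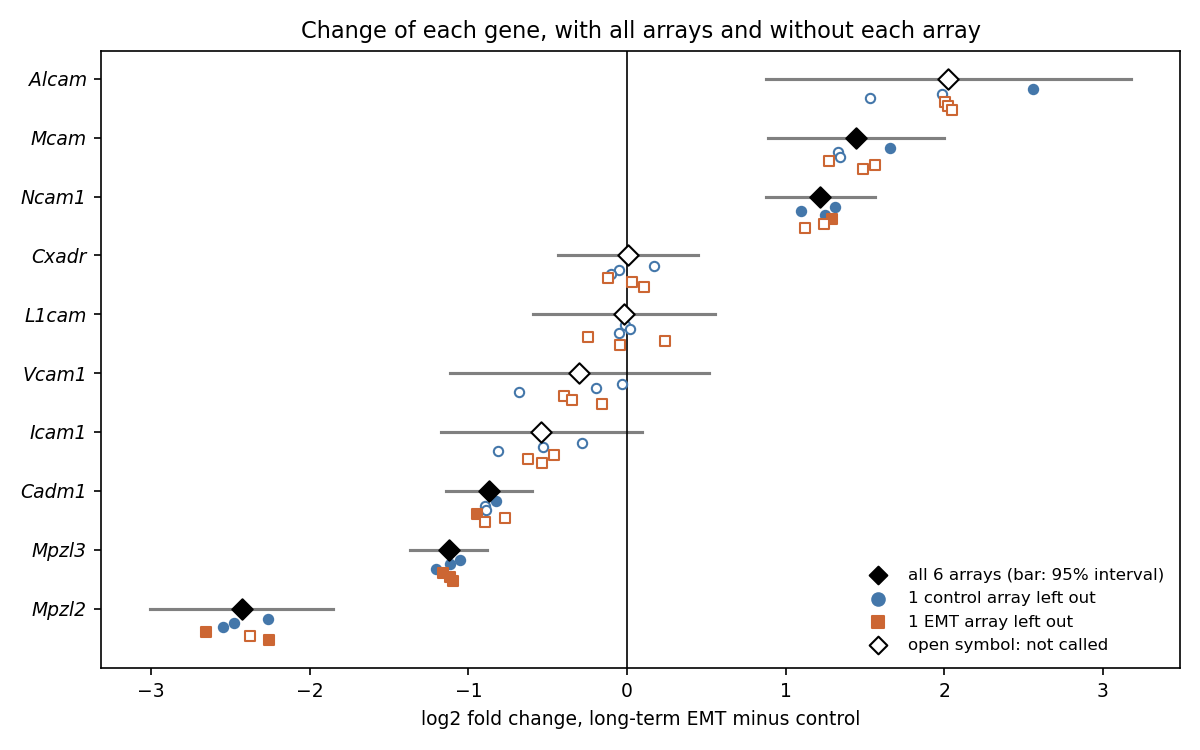
Log2 fold change of each adhesion gene (horizontal axis, long-term EMT minus control) with all 6 arrays (diamonds, with the 95% interval as a bar) and with 1 array left out (circles for control arrays, squares for long-term EMT arrays). Filled symbols were called and open symbols were not, and *Mpzl3* is filled in all 7 fits while *Alcam* is filled only without control replicate 1.

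Other adhesion genes of the superfamily were read from a list of 82, of which 76 had a value. Of these, 5 rose (*Nectin3*, *Pvr*, *Nectin1*, *Igsf5* and *Cd200*) and 1 fell (*Ptprf*), against 1.47% and 1.49% of all genes. The other 70 were not called, and the median log2 fold change of the 76 was 0.02, as over all genes. With limma at an unadjusted p under 0.05 and the fold of 1.5, 6 were higher and 6 lower, against 2.88% and 3.71% of all genes. The methods' test gave 5 and 2 in this way, against 2.5% and 2.85%. The higher genes with limma included *Robo1*. The lower genes included *Gpa33*, *Bcam*, *Vsir* (log2 fold change -1.08), *Emb* (-1.03) and *Ceacam1* (-0.77). In 27 of the 76 both group means were below the background level. Among these were *Icam4*, *Madcam1* and *Pecam1* and the neural genes *Ncam2*, *Chl1*, *Nrcam* and *Nfasc*, with means between 3.32 and 4.43 in both groups. The other *Icam* genes, *Icam2*, at 4.68 and 4.64, and *Icam5*, at 4.91 and 4.82, were above it and not called. The study lists *Pvr*, *Igsf5* and, under older names, *Nectin1* and *Nectin3* among its induced adhesion genes and, in a spelling that may stand for it, *Ptprf* among its lower ones, on these samples. It also lists *Cdon* and *Amigo2* as lower, which are among the genes of the list without a value here. *Robo1*, which the study lists as induced, was not called (log2 fold change 0.67 ± 0.20 SE, limma adjusted p = 0.216).

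The nectins and nectin-like molecules pair with each other across cell contacts, and *Cadm1* is one of them. *Nectin3* had values of 7.47, 8.01 and 7.73 in control cells and of 9.22, 9.36 and 9.29 in long-term EMT cells. It rose 2.93-fold (log2 fold change 1.55 ± 0.14 SE, limma adjusted p = 0.00645). *Pvr* (nectin-like molecule 5), a receptor known from moving cells that binds NECTIN3, had values of 10.04, 9.92 and 9.64 in control cells and of 11.39, 11.21 and 11.19 in long-term EMT cells, a rise of 1.40 (± 0.13 SE, adjusted p = 0.00596). *Nectin1* rose by 0.95 (± 0.15 SE, adjusted p = 0.034). *Nectin2* had the same mean in both groups, 8.81, with a standard error of the difference of 0.24, and *Nectin4*, *Cadm3* and *Cadm4* were not called (log2 fold changes 0.39, 0.02 and -0.31). *Nectin3* and *Pvr* were called whichever array was left out, and *Nectin1* in 1 of these 6 fits, that without control replicate 1.

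**Figure D3:**
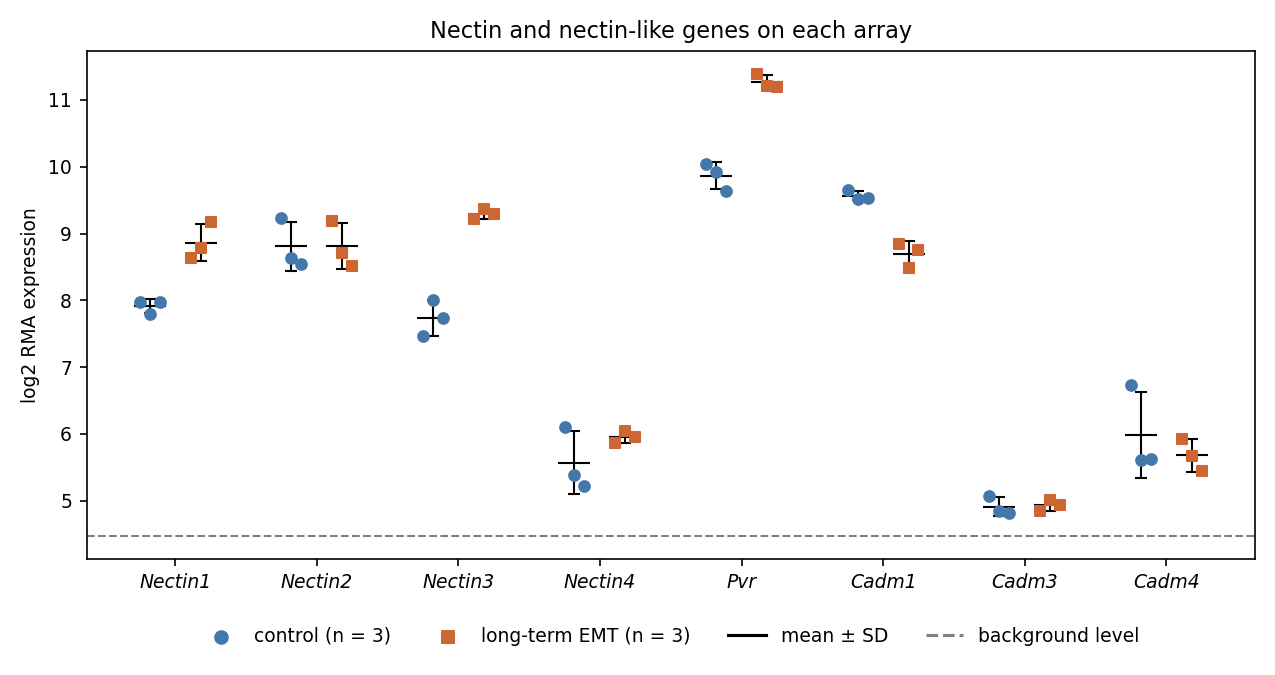
Expression of the nectin and nectin-like genes, *Cadm1* among them, array by array, in log2 RMA values (vertical axis), with circles for the 3 control samples, squares for the 3 long-term EMT samples, black marks for the group mean and its SD and the background level of 4.48 as a dashed line. *Nectin1*, *Nectin3* and *Pvr* are higher on every long-term EMT array than on every control array, *Cadm1* is lower, and the groups overlap for the other 4 genes.

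*Cxadr* shares its arrangement of immunoglobulin-like domains with the junctional adhesion molecules and with *Clmp*, *Igsf11* and *Esam*. *F11r* (JAM-A), the form of epithelial tight junctions, had means of 10.44 in control cells and 10.56 in long-term EMT cells (log2 fold change 0.12 ± 0.26 SE, limma adjusted p = 0.91), and *Jam2* had means of 6.12 and 6.58 (adjusted p = 0.386). *Igsf5* (JAM-4) was called, with values of 5.25, 4.84 and 4.95 in control cells and of 6.05, 5.99 and 5.71 in long-term EMT cells (log2 fold change 0.90 ± 0.14 SE, adjusted p = 0.0354). *Jam3*, *Clmp* and *Jaml* were below the background level in both groups. *Igsf11*, at means of 5.10 and 5.23, and *Esam*, at 4.42 and 4.62, were not called. *Gpa33*, an intestinal antigen with the same arrangement of domains, had values of 8.40, 6.90 and 6.18 in control cells and of 4.87, 5.04 and 5.21 in long-term EMT cells and was not called (log2 fold change -2.12 ± 0.53 SE, adjusted p = 0.133).

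*Ptprf* (LAR), a receptor tyrosine phosphatase with immunoglobulin-like domains that is found at cell contacts, had values of 10.16, 9.74 and 9.99 in control cells and of 8.14, 8.02 and 8.24 in long-term EMT cells. It fell by 1.83 (± 0.13 SE, limma adjusted p = 0.00274) and was called whichever array was left out. Its relative *Ptprs* had a log2 fold change of 0.18 (± 0.24 SE, adjusted p = 0.827). *Ptprk*, another receptor phosphatase gene, lay lower with limma adjusted p = 0.034 but below the fold of 1.5 (log2 fold change -0.56). *Ptprm* was not called (0.06), and *Ptprd* was below the background level in both groups. *Cd200*, whose product binds a receptor on myeloid cells, rose by 0.89 (± 0.11 SE, adjusted p = 0.0144). *Igsf5* was called in 1 and *Cd200* in 2 of 6 leave-one-out fits.

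**Figure D4:**
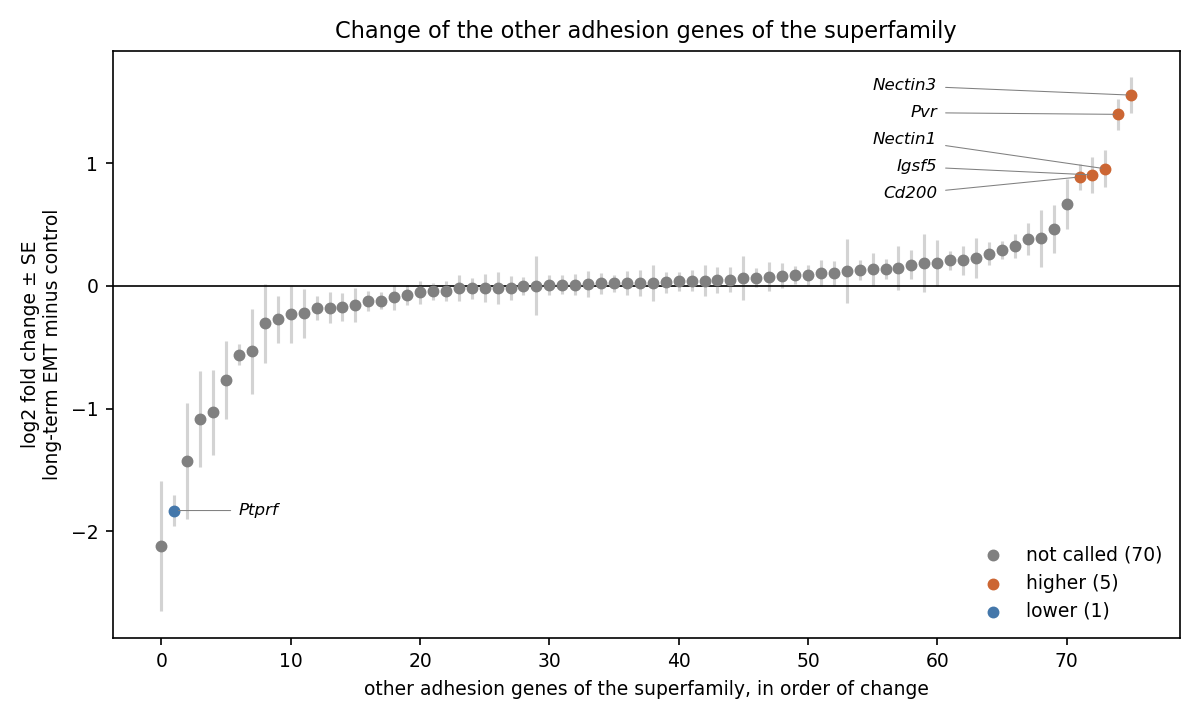
Log2 fold change (vertical axis, long-term EMT minus control, with the standard error as a bar) of 76 other adhesion genes of the superfamily, placed along the horizontal axis in order of change. The 5 genes that rose and *Ptprf*, which fell, are named, and the lowest point, *Gpa33* at -2.12, was not called.

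Of 31 extracellular ligands and receptors of these molecules, 2 rose and 2 fell, against 1.47% and 1.49% of all genes. The other 27 were not called, and the median log2 fold change of the 31 was 0.03. The rises were those of *Itgb3*, by 2.93 (± 0.30 SE, limma adjusted p = 0.00838), and of *Itga5*, by 1.41 (± 0.13 SE, adjusted p = 0.00596), integrin subunits of receptors for matrix proteins, some of which also bind L1CAM. *Nrp1*, a co-receptor that L1CAM joins, fell by 1.85 (± 0.11 SE, adjusted p = 0.00195), and *Lgals3*, a lectin that binds sugar chains on MCAM and NCAM1, fell by 1.43 (± 0.09 SE, adjusted p = 0.00195). *Itgb3* was called in 4 and the other 3 genes in all 6 leave-one-out fits. The α-chain of the VCAM1 receptor, *Itga4*, had means of 4.04 and 4.02, and those of the ICAM1 receptors, *Itgal* and *Itgam*, had means of 4.20 and 4.31 and of 4.01 and 4.07, all below the background level, while *Itgb2* had means of 8.18 and 8.22. The CD6 gene, at 4.40 and 4.52, and *Crtam*, the lymphocyte partner of CADM1, at 4.60 and 4.53, were near that level. *Itgb1* lay higher with adjusted p = 0.033 but below the fold of 1.5 (log2 fold change 0.51). *Fgfr1*, which NCAM1 can bind, had a log2 fold change of 0.56 (± 0.13 SE, adjusted p = 0.109), and *Fgfr2* one of -1.89 (± 0.35 SE, adjusted p = 0.0575).

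Of 34 measured cytosolic partners, glycosyltransferases and proteases, 3 rose and 2 fell, against 1.47% and 1.49% of all genes. The other 29 were not called, and the median log2 fold change of the 34 was -0.01. *Mmp9*, a gelatinase, had values of 10.01, 7.99 and 7.82 in control cells and of 12.46, 12.10 and 12.02 in long-term EMT cells (log2 fold change 3.59 ± 0.57 SE, limma adjusted p = 0.0354). *Fyn*, the Src family kinase that acts downstream of NCAM1, rose by 0.82 (± 0.13 SE, adjusted p = 0.033), and *Mgat5*, which branches N-linked sugar chains, rose by 0.69 (± 0.10 SE, adjusted p = 0.0247). *Patj*, a scaffold of tight junctions, fell by 1.27 (± 0.14 SE, adjusted p = 0.0115), and the protease gene *Bace1*, whose product also cuts neural adhesion molecules, fell by 0.91 (± 0.15 SE, adjusted p = 0.0394). None of these 5 genes was called in more than 2 of the 6 leave-one-out fits. The sheddase genes *Adam10* and *Adam17* were not called (log2 fold changes -0.14 and -0.30), and neither were the polysialyltransferase genes of NCAM1, *St8sia2*, at means of 4.25 and 4.71, and *St8sia4*, at 4.74 and 4.71. Of the ezrin, radixin and moesin genes, whose products tie ICAM1, VCAM1 and L1CAM to actin, *Msn* lay higher with adjusted p = 0.0322 but below the fold of 1.5 (log2 fold change 0.45), and *Ezr* and *Rdx* had log2 fold changes of -0.10 and -0.26. *Epb41l3*, which binds the tail of CADM1, was below the background level in both groups, and *Ank3*, an ankyrin gene, had a log2 fold change of -1.34 (± 0.29 SE, adjusted p = 0.0895).

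Markers of other cell types were read for the same arrays. None of 9 leukocyte markers was called with limma. Nor did any pass the fold of 1.5 at an unadjusted p of 0.05 with limma or with the methods' t-test. The means of 6 of them were above the background level in control cells and those of 5 in long-term EMT cells. *Ptprc* had means of 4.76 and 4.78, and *Itgb2*, also on this list, had means of 8.18 and 8.22. Of 8 fibroblast markers none was called, with 1 higher and 2 lower at an unadjusted p in limma and 1 and 1 in the methods' t-test, against the shares of all genes given for the NF-κB inducible genes. *Pdgfrb*, at means of 9.92 and 8.61, and *Pdgfra*, at 8.33 and 7.38, lay far over the background level without TGF-β1, while *Lum*, at 3.25 and 3.30, and *Fap*, at 3.71 and 3.59, were below it. The marker that was higher at an unadjusted p is none of these genes. All long-term EMT arrays lay above all control arrays for 1 of the 8 markers and below them for 3, against 12.6% and 11.5% of all genes. The mean level of the 8 fibroblast markers was 5.80 to 6.33 on the control arrays and 5.53 to 5.69 on the long-term EMT arrays. In RNA of whole cultures, fewer cells that express a gene and less RNA per cell cannot be told apart.

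The nearest protein-coding gene with a value on each side of the members was read as well, in the order of the RefSeq genes. Genes without a value were passed over. *Arhgap4* at *L1cam*, *4931429L15Rik* at *Cadm1*, *Cdc14a* at *Vcam1* and *D16Ertd472e* at *Cxadr* are therefore not directly adjacent. *Cblb*, next to *Alcam*, rose by 0.76 (± 0.09 SE, limma adjusted p = 0.0142). *Mrpl4*, next to *Icam1*, fell by 0.63 (± 0.07 SE, adjusted p = 0.013). Over all genes, 1.47% rose and 1.49% fell. On the other side, *Zpld1* at *Alcam* and *Icam4* at *Icam1* were not called (log2 fold changes 0.06 and 0.02). No flanking gene read for *L1cam*, *Cadm1*, *Vcam1* or *Cxadr* was called. Next to *Ncam1*, *Ttc12* and *Plet1* were not called (log2 fold changes 0.03 and 0.21), and neither were *Rnf26* and *Cbl* next to *Mcam* (-0.33 and 0.48). *Mpzl2* and *Mpzl3* were the only members next to each other, and both fell.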

How the data were processed

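RNA of 6 samples, 150 ng each, was hybridized to Affymetrix MoGene-1_1-st-v1 arrays. The authors processed the arrays with the Robust Multi-array Average, and per the labels with Affymetrix Expression Console (version not given in the sources used here), and deposited log2 values for 35556 probe sets, which were used without further normalization. Quantile normalization within this procedure makes the arrays alike in distribution and would hide a shift of all genes.

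Groups were compared with limma 3.58.1 (lmFit and eBayes, R 4.3.3) over all probe sets of all 6 arrays, which was also tested on simulated data. The number of arrays limits the precision. Of the probe sets, 21218 carry 1 gene symbol, 1881 several and 12457 none. Each of 18820 genes was read from the single-symbol probe set with the highest mean, through older symbols by gene ID where needed.

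The members, the lists and the alternatives were chosen with earlier results of these data known. Named genes are the 10 members and, per list, at most 8 called genes with the largest change. Other list members and flanking genes were named after their values had been seen. Roles of genes are background knowledge. Promoter sequences are from RefSeq (GRCm38.p6). Levels of different genes were not compared. The methods' Student's t-test was an alternative. The planned protein comparison was not carried out.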

Additional observations from a re-analysis of the deposited data

How the results depend on the processing

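The directions of *Alcam*, *Mcam*, *Ncam1*, *Cadm1*, *Mpzl2*, *Mpzl3*, *Icam1* and *Vcam1* were the same under every alternative run. *L1cam* and *Cxadr*, which were not called, changed sign, to 0.011 for *L1cam* after quantile normalization again and to -0.022 for *Cxadr* with equal array medians, and they ranged from -0.25 to 0.24 and from -0.12 to 0.17 when 1 array was left out. Against 2 members called higher and 3 lower, the counts were 0 and 0 with the methods' t-test after Benjamini-Hochberg adjustment, 3 and 3 with that test at an unadjusted p, 1 and 2 with treat against a fold of 1.2, which lost *Mcam* and *Cadm1*, and 2 and 2 at a fold above 2, which lost *Cadm1*. With array weights (log2 fold change 2.17) and with the methods' t-test at an unadjusted p, *Alcam* was called as well. Leaving out 1 array gave 0 to 3 higher and 1 to 3 lower members. It gave 2 to 7 higher and 1 to 2 lower genes of the other adhesion genes, 1 to 3 and 2 to 3 of the ligands and receptors, 0 to 3 and 0 to 3 of the cytosolic and processing partners, and 0 to 0 and 0 to 2 of the NF-κB inducible genes. Over all genes, 276 rose and 281 fell, against 471 and 537 with the methods' t-test at an unadjusted p, 35 and 23 after its adjustment, 143 and 166 with treat, 158 and 198 at a fold above 2, 526 and 581 with array weights, and 89 to 376 and 89 to 401 when 1 array was left out. The labels do not say whether the replicate numbers pair the samples, and the main fit does not pair them. Deviations from the group means correlated between control and long-term EMT arrays at 0.19, 0.02 and 0.25 for numbers 1, 2 and 3. For unlike numbers they correlated at -0.27 to 0.14. With the replicate block 2 members were called higher and 3 lower. The standard errors of the members were smaller with it, at 0.09 against 0.23 for *Mcam* and 0.13 against 0.14 for *Ncam1*. Among the called members, the limma adjusted p was lower with the block for *Mcam* (0.0134 against 0.035) and *Mpzl2* (0.00707 against 0.00754). It was higher for *Ncam1* (0.0379 against 0.0132), *Cadm1* (0.0379 against 0.0187) and *Mpzl3* (0.0196 against 0.00596). Whether the samples are paired was not tested further. Values near the background level, as those of *Icam1*, have only a bound, and the causes of these differences were not tested.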
